A study of Mus musculus with 8 samples.

Results

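The genes described here are 9 that mark the early neural lineage, followed across undifferentiated mouse pluripotent cells. The genes are Pax6, Sox1, Nes, Neurod1, Neurog2, Olig2, Hes5, Tubb3 and Insm1. They were chosen by name, and every probe whose RefSeq transcript belongs to one of them was taken, which gave 12 of the 55667 probes used and 9 of the 20970 named genes on the array. Expression was measured on 8 one-colour Agilent arrays, all of C57BL/6J cells. A single array held RNA of B6J-23 embryonic stem cells (ESCs), 4 held OSKH induced pluripotent stem cells (iPSCs) and 3 held OSK iPSCs, the control group of the series. The letters are not spelled out in the labels; OSK is read here as the reprogramming factors Oct4, Sox2 and Klf4, and H as the oocyte linker histone H1foo. Whether the arrays of 1 group came from different clones or from 1 culture is not stated in the labels, so the p-values measure spread among these arrays, and part or all of it may be technical.

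Neural cells arise from the epiblast, the pluripotent tissue that ESCs and iPSCs resemble, when signals that hold back neural fate are low. Sox1 is among the first genes of the neural plate, Pax6 and Nes follow in neural progenitors, and Hes5 is a Notch target that keeps progenitors from differentiating. Neurog2 and Neurod1 are proneural factors of the basic helix-loop-helix (bHLH) family, Insm1 is a zinc finger factor of neuronal and neuroendocrine precursors, Olig2 is a bHLH factor of motor neuron and oligodendrocyte precursors, and Tubb3 encodes a neuronal beta-tubulin. Cultures of undifferentiated pluripotent cells can hold some cells that have begun to leave this state. In such bulk samples, fewer cells of a type and less RNA per cell cannot be told apart.

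The promoters of 3 genes are shown because their genes had the widest ranges over the iPSC arrays among members measured on all 8 arrays with an entry in the promoter table. Each is 300 bases long, from 250 bases before to 50 after the start site, from RefSeq on GRCm38.p6, 5′ to 3′ on the gene's strand. Capitals mark TGGGAA or its reverse complement, the core motif of the Notch factor Rbpj, and CANNTG, the E-box bound by bHLH factors. The Sox1 promoter lies at chr8:12395269-12395568 on the plus strand, that of Neurod1 at chr2:79456587-79456886 on the minus strand and that of Hes5 at chr4:154960673-154960972 on the plus strand.
Sox1: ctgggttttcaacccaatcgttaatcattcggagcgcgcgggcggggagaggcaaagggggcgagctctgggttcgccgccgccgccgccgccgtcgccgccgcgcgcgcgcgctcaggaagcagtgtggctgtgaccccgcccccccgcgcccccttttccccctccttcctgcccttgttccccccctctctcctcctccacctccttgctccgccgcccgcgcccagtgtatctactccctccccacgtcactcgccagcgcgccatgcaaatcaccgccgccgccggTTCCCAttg
Neurod1: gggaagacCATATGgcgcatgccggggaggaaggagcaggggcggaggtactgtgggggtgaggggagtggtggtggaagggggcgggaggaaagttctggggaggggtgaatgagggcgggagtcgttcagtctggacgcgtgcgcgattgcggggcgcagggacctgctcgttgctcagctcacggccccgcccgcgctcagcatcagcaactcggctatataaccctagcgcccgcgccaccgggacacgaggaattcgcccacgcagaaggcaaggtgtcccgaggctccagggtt
Hes5: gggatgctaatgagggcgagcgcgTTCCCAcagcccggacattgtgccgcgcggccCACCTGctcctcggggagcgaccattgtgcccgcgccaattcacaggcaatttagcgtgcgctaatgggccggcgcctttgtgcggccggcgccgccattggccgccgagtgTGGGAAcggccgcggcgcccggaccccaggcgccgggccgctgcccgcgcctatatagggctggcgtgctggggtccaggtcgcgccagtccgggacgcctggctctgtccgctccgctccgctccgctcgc

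The Hes5 promoter held 2 Rbpj motifs and 1 E-box, that of Neurod1 held 1 E-box, and that of Sox1 held 1 Rbpj motif, in the 50 bases after the start site. Of the 9 promoters listed for 8 of the genes (Pax6 has 2 entries and Insm1 none), 2 held the Rbpj motif and 3 an E-box, against 25.6% and 72.3% of all 32851 promoters of this length, with both strands searched. The N-box CACNAG, which Hes factors bind, was in 3 of the 9 and in 42.5% of all. The 9 held 10 to 41 CG dinucleotides each, where the median of all promoters was 7. A match is a run of letters and was not tested as a binding site.

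The share of probes well above background ran from 51.4% to 59.0% per array, and no probe was saturated. All 8 arrays lay on 1 slide. ESC and OSKH 1 to 3 were in slide row 1, while OSKH 4 and the 3 OSK arrays were in row 2, so that a row effect and the group are partly mixed. The 12 pluripotency markers, among them Pou5f1 and Nanog, were well above background on all 8 arrays, with a summed level of 644 to 960 in OSKH, 709 to 812 in OSK and 887 in ESC, where 1 is the 75th percentile of an array. The OSKH 4 array stood apart in mesoderm and mesendoderm markers, whose summed level was 57.1 there, 1.13 to 2.55 on the other iPSC arrays and 5.92 in ESC. Results that rest on it are given with and without it.

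Levels below are log2 signals after subtraction of each array's 75th percentile, so that 0 is that percentile, and they are comparable between arrays for 1 gene but not between genes. Of the 9 genes, 7 were well above background on all 8 arrays. Pax6 was measured on OSKH 2, OSK 2 and OSK 3, which is the least the filter allowed, and its other probe on no array. Neurog2, the factor that starts neurogenesis in the cortex and dorsal cord, was never well above background, with readings of -6.61 to -5.88, and was not tested. These genes were read in cells labelled undifferentiated, on arrays where the pluripotency markers were all measured.

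**Figure D1:**
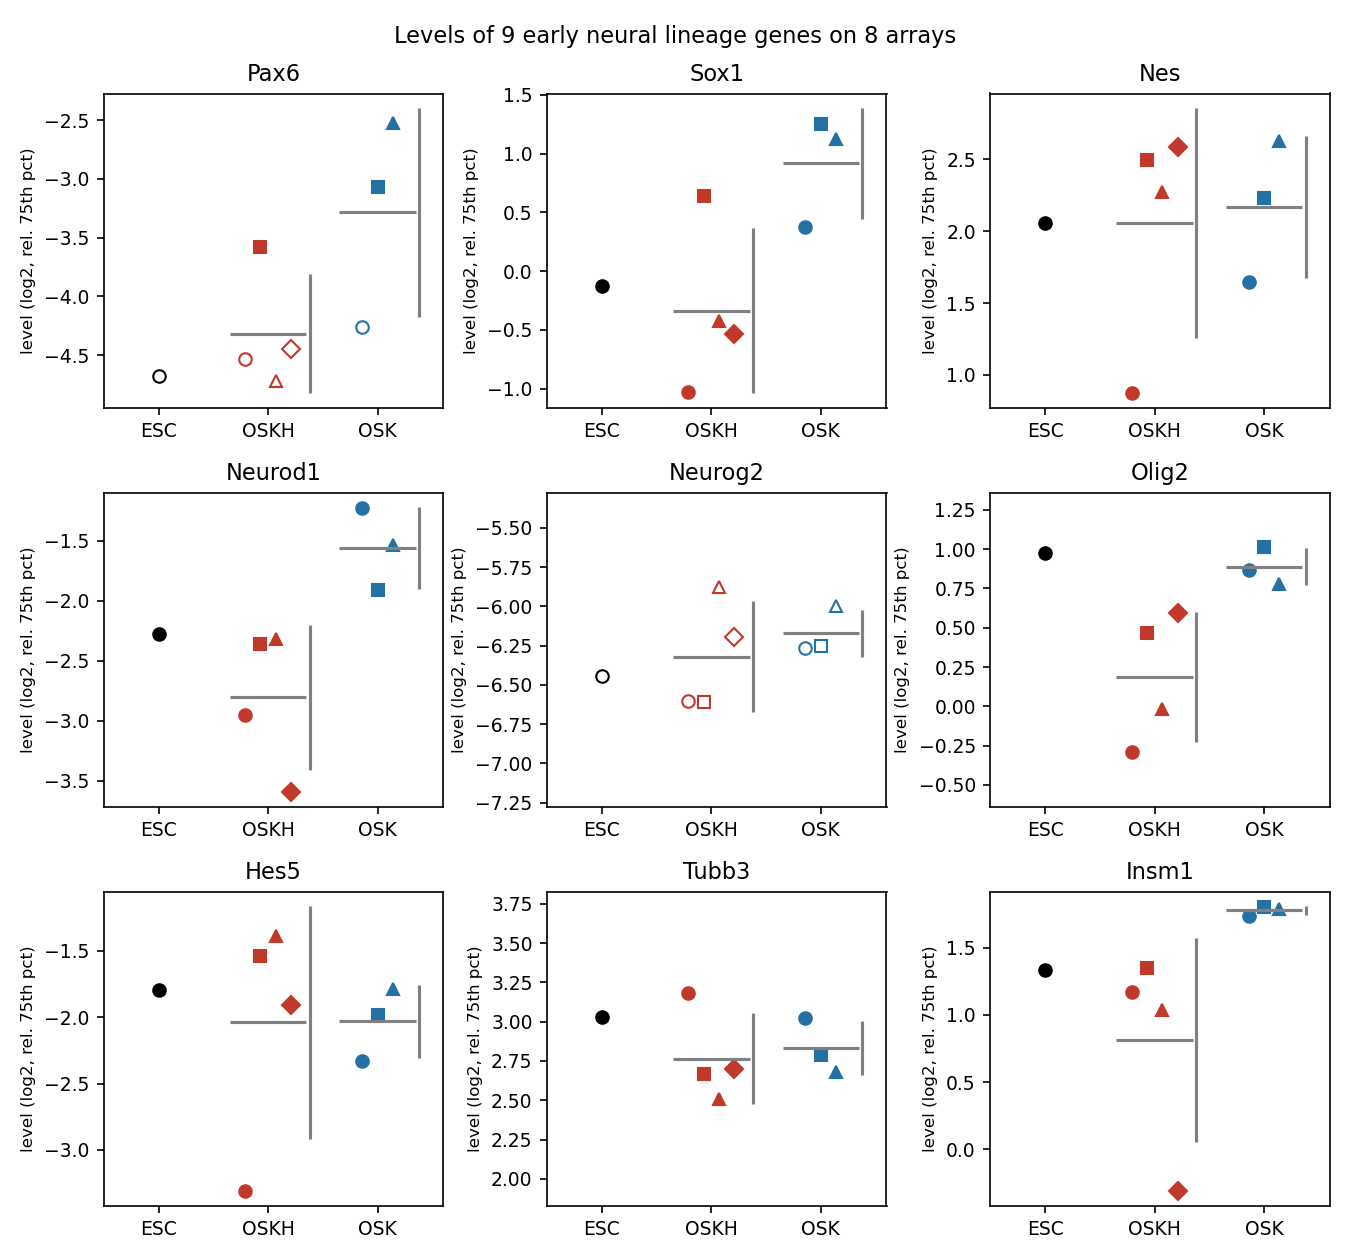
Level (log2, with each array's 75th percentile at 0) of the 9 genes on the ESC (black), OSKH (red) and OSK (blue) arrays. Circles, squares, triangles and diamonds are array numbers 1 to 4, open symbols are not well above background, horizontal lines are group means and vertical lines are ± 1 SD. The OSK arrays lie above all OSKH arrays in Neurod1, Olig2 and Insm1.

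The first comparison asks whether OSKH and OSK iPSCs differ in these genes. Sox1, Neurod1, Pax6, Insm1 and Olig2 had mean levels 0.70 to 1.25 log2 units lower in OSKH than in OSK, while Nes, Tubb3 and Hes5 differed by at most 0.11. No gene passed the test over all features. All 8 genes tested had a difference below 0, a side that Hes5, at -0.01, left under quantile, median and normexp scaling, and 53.7% of the 22685 features tested lay below 0 as well. The median difference was -0.83 over the 8 genes and -0.01 over all features. The 8 include Pax6, which passed the filter through few bright arrays, and without it the median is the value of Olig2, -0.70.

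Sox1, a SoxB1 factor of the neural plate, read -1.03, 0.64, -0.42 and -0.54 on OSKH 1 to 4. It read 0.38, 1.25 and 1.12 on OSK 1 to 3, and -0.12 on ESC. The groups overlapped because OSKH 2 lay above OSK 1, while OSKH was the lower in each of the 3 pairs of same-numbered arrays. The OSKH mean was -0.34 ± 0.70 (SD, n = 4) and the OSK mean 0.92 ± 0.47 (SD, n = 3), a difference of -1.25 (SE 0.41), with an unadjusted p of 0.0189 and an adjusted p of 0.732 by limma. A second, dimmer Sox1 probe read -3.21, -2.66, -4.44 and -3.27 on OSKH 1 to 4, -2.18, -2.29 and -2.72 on OSK 1 to 3, and -3.11 on ESC. It had the same direction, but OSKH 3 rather than OSKH 1 was its lowest array.

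Pax6, a paired-box factor of forebrain, spinal cord and eye progenitors, read -4.53, -3.58, -4.72 and -4.45 on OSKH 1 to 4, -4.26, -3.07 and -2.52 on OSK 1 to 3, and -4.67 on ESC. The OSK 2 and OSK 3 arrays were highest and OSKH 2 came next, and these are the arrays on which it was measured. The difference of -1.04 (SE 0.45) had an adjusted p of 0.767 by limma, and was -0.38 with normexp background correction and -0.65 without OSK 3. Since it passed the filter through these 3 bright arrays, its size is no support for a difference.

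Neurod1, a proneural factor of differentiating neurons and endocrine cells, read -2.95, -2.36, -2.32 and -3.60 on OSKH 1 to 4, -1.23, -1.91 and -1.54 on OSK 1 to 3, and -2.28 on ESC. The 3 OSK arrays lay above all OSKH arrays and above ESC. The OSKH mean was -2.81 ± 0.60 (SD, n = 4) and the OSK mean -1.56 ± 0.34 (SD, n = 3), 2.37-fold higher in OSK. The difference of -1.24 (SE 0.34) had the lowest unadjusted p of the 8 genes, 0.00851, with an adjusted p of 0.732 by limma. It was -0.74 with normexp. The other Neurod1 probe, measured on 6 of 8 arrays, read -4.20, -3.52, -3.24 and -6.07 on OSKH 1 to 4 and -2.23, -3.04 and -2.20 on OSK 1 to 3, again with no overlap. Only 2 of its 4 OSKH readings, and all 3 OSK readings, were well above background.

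Insm1, a repressor that lets neuronal and endocrine precursors leave the cell cycle, read 1.17, 1.35, 1.04 and -0.31 on OSKH 1 to 4, 1.74, 1.80 and 1.79 on OSK 1 to 3, and 1.33 on ESC. The 3 OSK arrays lay close together and above the rest, the ESC array lay among OSKH 1 to 3, and OSKH 4 lay far below. The OSKH mean was 0.81 ± 0.76 (SD, n = 4) and the OSK mean 1.78 ± 0.03 (SD, n = 3). The difference of -0.97 (SE 0.39) had an unadjusted p of 0.0431 and an adjusted p of 0.755 by limma, and without OSKH 4 it was -0.59.

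Olig2 read -0.29, 0.46, -0.02 and 0.59 on OSKH 1 to 4, 0.87, 1.01 and 0.78 on OSK 1 to 3, and 0.97 on ESC. The OSK arrays lay above all OSKH arrays and together with ESC. The OSKH mean was 0.19 ± 0.41 (SD, n = 4) and the OSK mean 0.89 ± 0.12 (SD, n = 3), and the difference of -0.70 (SE 0.22) had an unadjusted p of 0.017 and an adjusted p of 0.732 by limma.

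Hes5, Nes and Tubb3 gave no such separation. Hes5 read -3.31, -1.54, -1.39 and -1.91 on OSKH 1 to 4, -2.33, -1.98 and -1.79 on OSK 1 to 3, and -1.80 on ESC. Nes, an intermediate filament protein of neural progenitors and some mesodermal cells, read 0.87, 2.50, 2.27 and 2.59 on OSKH 1 to 4, 1.65, 2.23 and 2.63 on OSK 1 to 3, and 2.06 on ESC. In both genes OSKH 1 was lowest and the other OSKH arrays lay among the OSK arrays or above them. Tubb3 read 3.18, 2.67, 2.51 and 2.70 on OSKH 1 to 4, 3.02, 2.79 and 2.68 on OSK 1 to 3, and 3.03 on ESC. Its 95% interval for the difference ran from -0.49 to 0.35. The intervals of Hes5 (-1.10 to 1.09) and Nes (-1.20 to 0.98) were wider, so a difference of the size seen in Olig2 is not excluded for either gene. Without OSKH 1 the differences were 0.42 for Hes5 and 0.28 for Nes.

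By limma, 0 of the 8 genes and 0 of 22685 features (0% of all) passed an adjusted p of 0.05, and the lowest adjusted p of any feature was 0.463. Of the 8 genes, 4 had an unadjusted p under 0.05, against 6.48% of all features, and all 4 were lower in OSKH, against 3.29%. The groups did not overlap in 3 genes, Neurod1, Olig2 and Insm1, against 7.34% of all features. All 3 were lower in OSKH, against 4.19%. The genes were put together with earlier results of these arrays known, so these counts describe them and are no independent evidence.

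**Figure D2:**
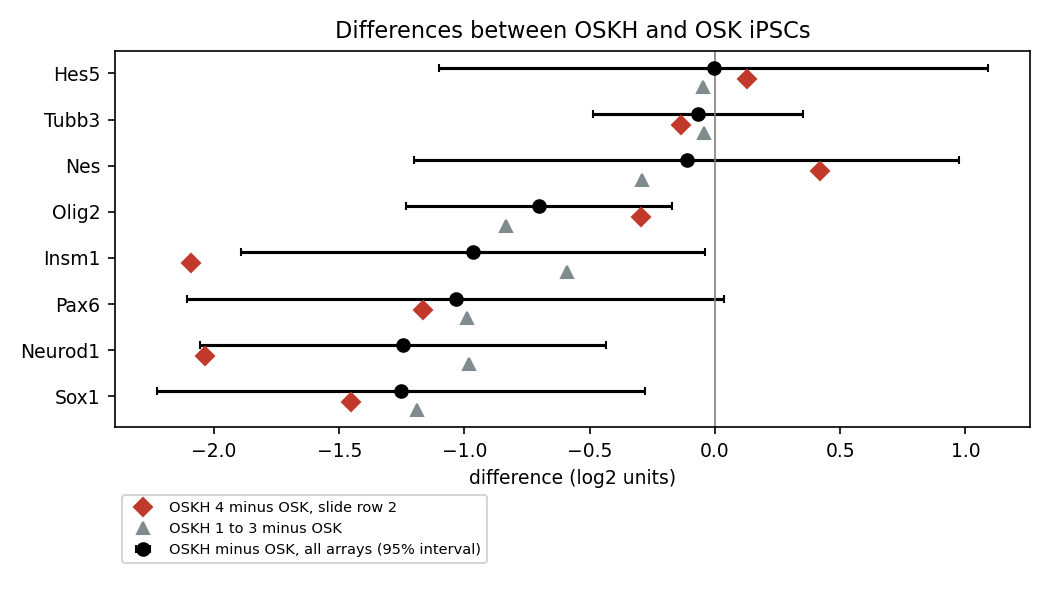
Difference between OSKH and OSK (log2 units) for the 8 genes tested, with the 95% interval from limma for all arrays (black). Triangles give OSKH 1 to 3 minus OSK and diamonds OSKH 4 minus OSK within slide row 2. The diamonds of Insm1 (-2.09) and Neurod1 (-2.04) lie farthest from 0.

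Within slide row 2 the comparison is that of OSKH 4 with the 3 OSK arrays, in a fit with row as a block. OSKH 4 lay in slide column 1, as did ESC, and OSK 1 to 3 lay in columns 2 to 4. Group and slide column therefore cannot be told apart in this comparison. Insm1 was lower on OSKH 4 by -2.09 (SE 0.15, limma adjusted p = 0.0189), which is 4.26-fold, and was the 1 gene of the 8 under the threshold. The spread of OSKH 4 itself is not measured, since it is the single OSKH array of the row and the SE comes from the other arrays, so this describes that array. Of all features, 0.207% passed, and 0.0397% in this direction. Leaving out an OSK array ended the call: the adjusted p was 0.0692 without OSK 1, 0.107 without OSK 2 and 0.0881 without OSK 3, at differences of -2.11 to -2.08. Over all settings of the Insm1 comparison within the row, the adjusted p ran from 0.0040 to 0.107. Neurod1 differed by -2.04 (SE 0.35, limma adjusted p = 0.124). At an unadjusted p under 0.05 these were the 2 genes of the 8, both lower, where 9.76% of all features had such a p and 5.36% in this direction. Sox1 (-1.45) and Pax6 (-1.17) differed in the same direction as in the pooled comparison, Olig2 by -0.30 and Tubb3 by -0.13, while Nes was at 0.42 and Hes5 at 0.13.

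The arrays OSKH 1 to 3 were all in row 1 and their differences from OSK cannot be told apart from row. These were -1.19 for Sox1, -0.99 for Pax6, -0.98 for Neurod1, -0.84 for Olig2 and -0.59 for Insm1. They share the OSK arrays with the comparison within row 2, and the 2 sets of values are given side by side. The ESC array, also of row 1, lay 0.15 above OSKH 1 to 3 in Sox1, 0.27 in Neurod1, 0.92 in Olig2 and 0.15 in Insm1, and was at -0.40 in Pax6, with adjusted p from 0.866 to 0.991 by limma. Olig2 was the 1 gene of the 8 with an unadjusted p under 0.05 there, against 5.49% of all features.

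Markers of other cell types moved with OSKH 4. Of 9 mesoderm and mesendoderm markers, all 9 were well above background on OSKH 4, 5 to 7 on the other arrays, and Mixl1 and Mesp1 were measured on OSKH 4 alone. In that list, the 7 genes tested had a median difference of 5.66 between OSKH 4 and OSK within the row, against -0.04 over all features. The endoderm markers had a summed level of 5.68 on OSKH 4 and 0.306 to 0.596 on the other iPSC arrays, and fibroblast and feeder markers 26.2 against 7.09 to 15.2, with ESC at 23.9. The 6 surface ectoderm and epithelium markers summed to 75.1 on OSKH 4 and 25.7 to 35.1 on the other arrays. The simple keratins Krt18 and Krt8 were 2.28 and 3.59 above OSK within the row, while Krt5 was at -0.18, Krt14 at -0.26, Trp63 at 0.18 and Tfap2c at 0.38. On all arrays the neural crest sum lay between 1.83 and 3.24. Its brightest gene was Foxd3, also counted here as an epiblast marker, at 0.27 to 1.39, and the others read below 0 on all arrays. The pluripotency sum on OSKH 4, 713, lay within the range of the other iPSC arrays, but such a sum weighs the brightest genes most. Of the single markers, Pou5f1 (6.09), Utf1 (6.64) and Tdgf1 (5.23) were lowest of all arrays on OSKH 4. Nanog (2.28) was highest there, and the rest were neither. Of 8 endocrine pancreas markers, where Neurod1 and Insm1 also act, 3 were above background on every array, and Gcg, Sst, Pdx1 and Pax4 were among those above it on none. The 3 tested, Nkx6-1 among them, had a median OSKH minus OSK difference of -0.24, with 1 above 0 and 2 below. Their median for OSKH 4 minus OSK within the row was -0.19. The part of these cell types in the low Insm1 and Neurod1 on OSKH 4 was not tested.

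Across the 7 iPSC arrays the 8 genes varied widely. The range was over 1 log2 unit in 7 of 8, against 24.5% of all features, and the median range was 2.02 against 0.57. Neurod1 spanned 2.37, Sox1 2.28, Pax6 2.20, Insm1 2.12, Hes5 1.92, Nes 1.76 and Olig2 1.30, while Tubb3 spanned 0.67, which 41.9% of features exceeded. An OSKH array was lowest in 8 of 8 genes, as in 63.8% of all features, and an OSK array highest in 6 of 8, against 29.8%. OSKH 1 was lowest of all arrays in Sox1, Nes, Olig2 and Hes5 (4 of 8, against 23.1% of all features) and highest in Tubb3 (1 of 8, against 20.4%). OSK 2 was highest in Sox1, Olig2 and Insm1 (3 of 8, against 8.11%). OSKH 4 was lowest in Neurod1 and Insm1 (2 of 8, against 19.4%). Of the 12 pluripotency markers, 9 were highest of the iPSC arrays on OSKH 1, and Pou5f1, Nanog and Tdgf1 were not. Tfcp2l1 was at 3.49 there and at 1.19 to 2.89 on the other iPSC arrays, Esrrb at 6.86 against 4.64 to 5.76, and Klf4 at 3.69 against 1.69 to 2.65. Gbx2, a factor of naive pluripotency and of the anterior hindbrain, was lowest on OSKH 1, at 0.54. The part of these markers in the low neural genes of OSKH 1 was not tested.

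**Figure D3:**
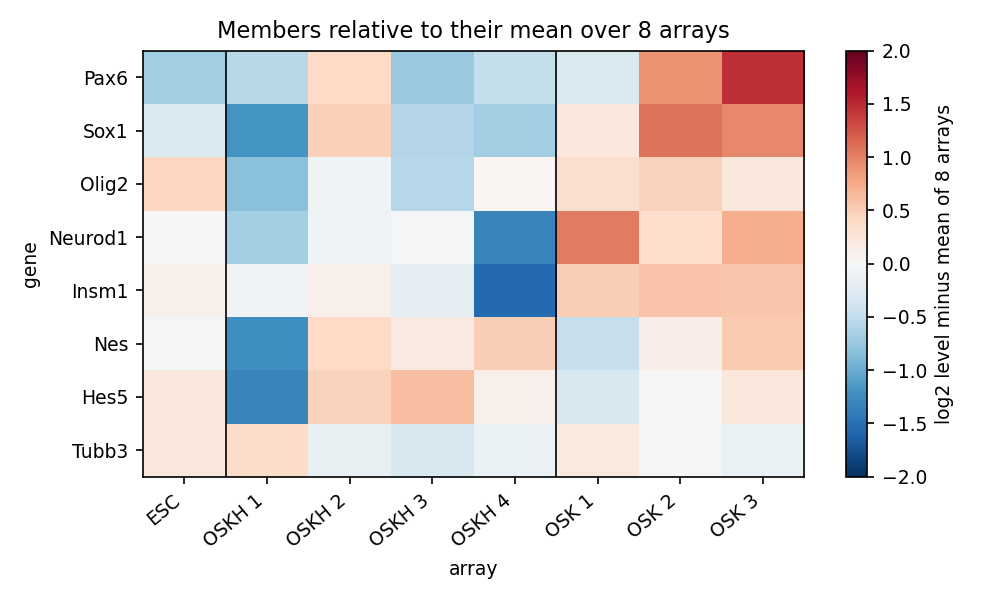
Log2 level of each of the 8 tested genes minus its mean over the 8 arrays, with arrays in columns and lines between the ESC, OSKH and OSK groups. Blue is below and red above the gene's mean. OSKH 1 is low in Nes, Hes5 and Sox1, and OSKH 4 in Neurod1 and Insm1.

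Likeness of these profiles was taken as the root mean square (RMS) difference of 2 genes over the 8 arrays, after each was set to its own mean. Among the members the closest pairs were Nes with Hes5 (0.26 log2 units), Neurod1 with Insm1 (0.33) and Pax6 with Sox1 (0.38). Over all named genes tested, Sox1 was nearest to Crct1 (0.17), Shisa3 (0.24) and Srrm4 (0.30), and Pax6 to Sox1, Nxph3 (0.39) and Gm4567 (0.40). Nes was nearest to Slco3a1 (0.11), Mkx (0.12) and Gatm (0.12), and Hes5 to Tmem121 (0.11), Vrtn (0.14) and Prr36 (0.15). Insm1 was nearest to Pou4f2 (0.20), Prss45 (0.22) and Tspan8 (0.24), and Neurod1 to Actl7b (0.25), Pou4f2 (0.26) and Themis2 (0.30). Pou4f2, a transcription factor of retinal ganglion cells, thus stood near both, at -2.68 on OSKH 4, -1.82 to -1.15 on OSKH 1 to 3 and -0.73 to -0.56 on OSK. Olig2 was nearest to Cdkn2b (0.19), Cd200 (0.22) and Eda2r (0.22). On OSKH 4, Actl7b (-5.98), Prss45 (-6.15) and Tspan8 (-5.00) lay below -4.05, the dimmest level at which any probe counted as measured there. Pax6 was measured on OSKH 2, OSK 2 and OSK 3 alone. Likeness to these genes thus rests partly on background readings.

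The second comparison sets the ESC array against the iPSCs. The ESC array lay within the range of the 7 iPSC arrays in all 8 tested genes, whereas it lay outside in 26.6% of all features. Olig2 was higher in ESC by 0.44 (SE 0.31), Hes5 by 0.24 and Tubb3 by 0.23, while Pax6 was at -0.87, Sox1 at -0.41, Neurod1 at -0.09, Nes at -0.06 and Insm1 at 0.04. None of these differences passed by limma, adjusted or at an unadjusted p under 0.05, which does not place them within the spread. The median was -0.01 over the 8 genes and 0.05 over all features, of which 0% passed and 5.29% had an unadjusted p under 0.05. With 1 ESC array the spread is taken from the iPSC arrays, and the intervals were wide, from -1.78 to 0.95 for Sox1 and from -0.31 to 1.18 for Olig2. Pax6 was not well above background on ESC, and 2 of 3 OSK arrays measured it. Its OSK mean, -3.28, was 2.02-fold above -4.30, the dimmest level at which any probe counted as measured on ESC. That mean includes OSK 1, which read -4.26 and was not well above background, so the ratio is not a strict lower bound. Pax6 passed the filter through OSKH 2, OSK 2 and OSK 3, so the ratio is no support for a difference. With normexp its ESC minus iPSC difference shrank from -0.87 to -0.20.

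Genes that work with these 9 were taken from 6 lists, and 0 of the 102 tested passed by limma in any of the 3 comparisons (OSKH against OSK, ESC against iPSCs, and OSKH 4 against OSK within row 2). The neural progenitor list (23 of 31 genes tested) had a median OSKH minus OSK difference of 0.00, with 12 genes above 0 and 11 below, against -0.01 over all features. Its smallest p in each direction belonged to Zfp521, a zinc finger factor that promotes neural differentiation, at 1.73 (SE 0.40, and 0.67 with normexp), measured on 6 of 8 arrays, and to Gbx2, a factor of the anterior hindbrain and of naive pluripotency, at -1.53 (SE 0.47). Both had an adjusted p of 0.732 by limma.

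Of the Notch pathway, 18 of 21 genes were tested, with a median of -0.06. Hey1, a Notch target, was at 0.78 (SE 0.27) and Lfng, a glycosyltransferase that tunes Notch receptors, at -0.43 (SE 0.15, and -0.20 with normexp). Rbpj, whose motif stands in the Hes5 promoter above, read 3.48 on OSKH 1 and 2.53 to 2.57 on OSKH 2 to 4. Notch3, a receptor, read 2.15 on OSKH 1 and 3.64 to 4.20 on OSKH 2 to 4. Dll1, a ligand, went the other way, at 0.34 on OSKH 1 and -2.40 to -1.40 on OSKH 2 to 4. OSKH 1 was the array with the lowest Hes5, and the part of these genes in it was not tested. Rbpj, Notch3 and Dll1 were named after their values were seen.

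Among proneural and neuronal differentiation factors, 12 of 27 were tested, since 8 of the other 15, such as Neurod4, Neurod6, Myt1 and Isl1, were above background on no array and 7 on 1 or 2 arrays. Their median was -0.06. Neurog3, a proneural factor of endocrine precursors, read -0.12, 0.44, -0.19 and 0.16 on OSKH 1 to 4, 2.02, 0.95 and 0.55 on OSK 1 to 3, and 0.00 on ESC. The groups did not overlap, and the difference of -1.10 (SE 0.35) had an adjusted p of 0.732 by limma and was -0.68 without OSK 1. Scrt1, a zinc finger repressor of the Snail family, was at 0.25 and at -0.20 within row 2. Rest, the repressor of neuronal genes in other cells, was at 4.86 to 5.53 on all arrays.

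Neuron and neuroendocrine products (27 of 30 tested) had a median of 0.01. Pcsk2, a prohormone convertase, was at 0.35 (SE 0.13) and Tubb2b, a beta-tubulin of developing neurons, at -0.28 (SE 0.10). The oligodendrocyte, ventral cord and glia list (15 of 21 tested) had a median of 0.12, with Mbp, the myelin basic protein gene, at 0.76 (SE 0.26) and Mog, another myelin gene, at -0.12. Of the bHLH partners and inhibitors, 7 of 7 were tested and all lay above 0 in OSKH, with a median of 0.21. Of all features, 53.7% lay below 0. Tcf3 (0.01), Tcf4 (0.05) and Tcf12 (0.08) lay near 0. Id4, at 0.45, read -0.99 on OSKH 1 and -3.16 to -2.60 on OSKH 2 to 4. On OSK it read -3.00 to -2.65. Id3, which blocks bHLH factors from binding DNA, read 3.51, 2.54, 3.23 and 3.18 on OSKH 1 to 4, 2.23, 2.29 and 1.80 on OSK 1 to 3, and 2.86 on ESC. The groups did not overlap, and the difference was 1.00 (SE 0.24) with an adjusted p of 0.732 by limma. Id1 was highest on OSKH 4, at 1.22, against -1.13 to -0.06 on the other iPSC arrays and 0.63 on ESC.

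**Figure D4:**
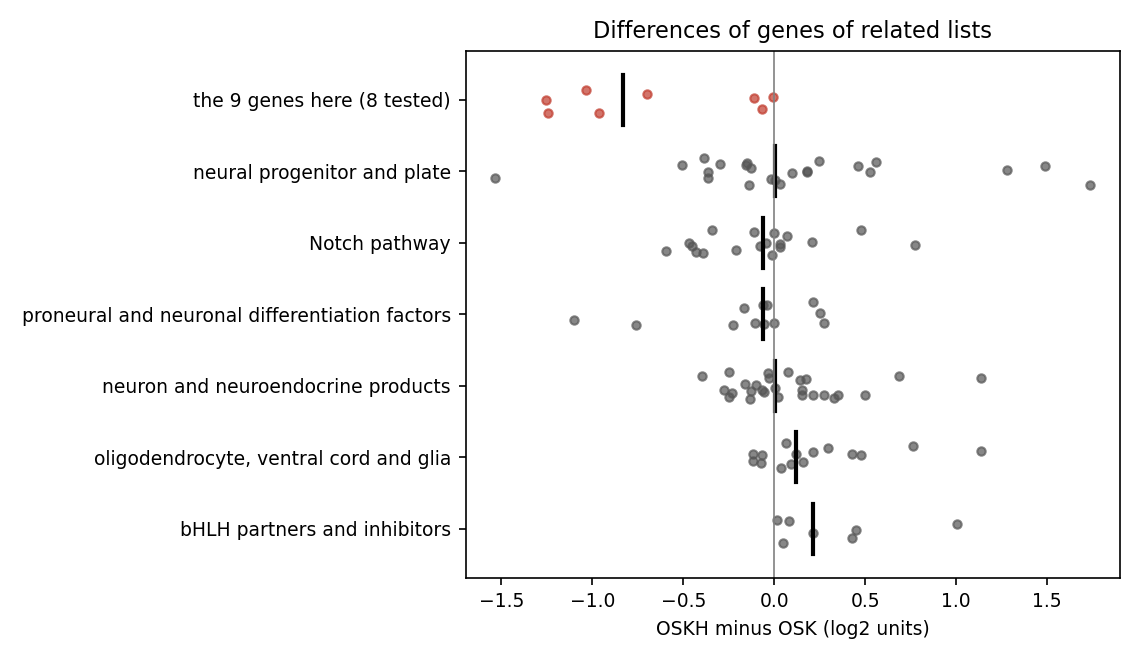
OSKH minus OSK difference (log2 units) of each tested gene, by list, with the median of a list as a vertical bar. The 8 tested genes of the 9 (red), Pax6 included, have a median of -0.83, and the medians of the 6 related lists lie between -0.06 and 0.21.

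Within slide row 2 and against ESC, list genes with the smallest p in a direction were as follows. On OSKH 4, Nkx6-1, a factor of ventral cord and pancreatic progenitors, was higher than on OSK by 1.49 (limma adjusted p = 0.0817), Cdh2, the cadherin of neural and mesodermal cells, by 2.64 (0.159), Hey1 by 1.28, Id1 by 1.67, Pcsk1 by 2.07 and Sox11 by 0.62. Crmp1, a protein of growing axons, was at -0.88, Gbx2 at -1.59, Numbl at -0.49, Pou4f1 at -0.31 and Tcf4 at -0.07. In ESC, Nhlh1 was at 0.50 and Pcsk2 at 0.54 above the iPSCs, with an adjusted p of 0.928 each by limma. Id1 was at 0.98, Slc1a3 at 0.60 and Rbpj at 0.34, while Pax3 was at -0.89, Neurog3 at -0.62, Aqp4 at -0.43, Mfng at -0.42, Map2 at -0.34 and Tcf12 at -0.25. These values are descriptions, since none passed.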

How the data were processed

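Cy3-labelled cRNA was made from total RNA, per the labels' protocols. Spots were quantified with Agilent Feature Extraction 11.5.1.1, per the file headers and the submitters' processing notes, and the deposited intensity of a spot is background-subtracted and detrended within its array, not scaled between arrays. The deposited flags (other values, 0 or 1) mark spots well above background. The deposited log2 value table differed from the log2 of the processed intensity by 1 constant on every array, within 0.01 for at least 99.7% of probes, with column medians of -3.71 to -3.60. No source used here names the software behind that table. The probe annotation refers to mm9.

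Outlier and control spots were left out, spots were averaged per probe, and each array's 75th percentile was subtracted from its log2 signals. RefSeq accessions without versions named 27650 of 55667 probes through a GRCm38.p6 table. Per gene, or per identifier without a name, the probe with the highest mean was used among those well above background on at least 3 arrays, which left 22685 features. The 3 groups were fitted in limma 3.58.1 (R 4.3.3) with Benjamini-Hochberg adjustment over all features. Tested on simulated data of 22685 features for the contrast of OSKH and OSK, the fit called 56% of features with a 2-fold change and 86% of those with a 4-fold one, with 8 false calls among 150. Such rates describe simulated features and give no detection rate for the 8 genes tested. For that contrast the SE of these genes ran from 0.18 (Tubb3) to 0.46 (Nes and Hes5) log2 units. The real arrays gave 0 calls, with a lowest adjusted p of 0.463 by limma. For the genes with the larger SEs, the absence of a call is thus no evidence of equal levels. Slide rows come from the file headers. Deviations of same-numbered OSKH and OSK arrays, which also shared a slide column, correlated across features at 0.47, 0.26 and 0.45. The main fit had no pairing, and array number was taken as a pair only in an alternative setting. The number of arrays limits the precision.

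Genes and lists were chosen with earlier results of these data known. All 9 genes were named. Of each list, genes past the threshold would be named, otherwise the gene with the smallest p in each direction, and for each gene spanning over 1 log2 unit the 3 named genes nearest in profile. A few list genes that this rule or a marker list would name are not reported here. A group with no array well above background has only a bound, per array whichever is larger, its measured signal or the dimmest signal that any probe well above background had.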

Additional observations from a re-analysis of the deposited data

Results flagged for a closer look

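In the OSKH group of 4 arrays, 1 array lay far from the other 3 in 4 of 42 probes and genes examined, where about 1 in 20 such groups is so marked by chance. Rbpj was at 3.48, Sox11, a factor of immature neurons, at 0.68 and Mog at -1.49 on OSKH 1. Tcf12, a bHLH partner, was at 1.32 on OSKH 2. None of the 9 early neural genes was so marked.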

How the results depend on the processing

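Across all planned settings, the gene-level differences kept direction and side of the threshold in 577 of 598 cases. Features called between OSKH and OSK stayed at 0 except with slide row as a block, where 47 were called and 1 of the 8 genes, Insm1 (-2.09), and with no filter on dim probes 12 features were called for ESC against iPSCs. With array number as a replicate block no call changed: the median difference of the genes was -0.71, and 2324 features against 1470 had an unadjusted p under 0.05. Direction turned in small differences. For OSKH minus OSK, Hes5 was at 0.022 with normexp, 0.010 with quantile normalization, 0.012 with median scaling and 0.13 with slide row as a block, where Nes was at 0.42 and Scrt1 at -0.20. Leaving out single arrays gave Hes5 -0.22 to 0.42, Nes -0.37 to 0.28 and Tubb3 -0.21 to 0.029. For ESC against iPSCs, the row block gave 0.15 for Sox1, 0.18 for Nes and 0.27 for Neurod1, and leaving out arrays gave Nes -0.25 to 0.059 and Insm1 -0.15 to 0.13. Within row 2, settings added after seeing the data gave 130 called features with normexp, 248 without the filter, 18 when probes had to be above background on every array, and 0 to 111 with an array left out, and Tcf4 was at 0.39 with the mean of its probes. For normexp the median spot signal was used, since the mean is not in the files. Dim genes such as Pax6 and Neurog2 are limited by signal over background.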
